A study of Mus musculus with 15 samples.

Results

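The genes of prostaglandin synthesis, breakdown and reception described here are 10 of the 24054 genes in the count table. They were listed by symbol, when earlier results of these data were already known. They are the cyclooxygenases Ptgs1 and Ptgs2, the terminal synthases Ptgds, Hpgds, Ptges and Ptgis, and the breakdown enzyme Hpgd. The others are the prostaglandin D2 receptors Ptgdr and Ptgdr2 and the prostaglandin E2 receptor Ptger4. All 10 symbols were found. RNA of whole lungs from 15 female wild-type Balb mice was sequenced, in 3 groups of 5 animals labelled as biological replicates. Saline animals were sham sensitized and received isotype control antibody. Animals of the OVA group were sensitized with ovalbumin by the intraperitoneal route, challenged with the nebulized protein, and received the same isotype control. The third group was sensitized and challenged in the same way and received an antibody against mouse IL-4Ra, the receptor chain shared by IL-4 and IL-13, for which the design gives a dose of 30 mg/kg. The sources used here do not give ages, antibody timing or the time at which lungs were taken.

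Cyclooxygenases turn arachidonic acid into prostaglandin H2, which terminal synthases convert to prostaglandin D2, prostaglandin E2 or prostacyclin. Prostaglandin D2 is the main prostanoid released by activated mast cells. It acts through Ptgdr (also DP1), which raises cyclic AMP, and through Ptgdr2 (also DP2 or CRTH2), which attracts T helper 2 cells, eosinophils and basophils. Hpgd oxidizes prostaglandins and so ends their activity, a step for which the lung is well known.

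The saline libraries totalled 16774285 to 27570666 expected counts, the OVA libraries 10042825 to 14706131, and the libraries with anti-IL-4Ra 12317805 to 16914475. Levels are in CPM, counts relative to the library total after TMM scaling. Rn45s, the precursor of ribosomal RNA, took 1.19 to 2.88% of counts in saline libraries, 4.31 to 12.4% in OVA libraries and 1.65 to 12.4% under anti-IL-4Ra, so it moved with challenge and differed most among the antibody-treated animals. The lung markers Sftpc, Ager and Scgb1a1 were present in every group, with mean levels of at least 3469 CPM, 549.9 CPM and 4777 CPM. In whole tissue, fewer cells of a type and less RNA per cell cannot be told apart.

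Challenge with OVA went with more RNA of the D2 receptor Ptgdr, the E2 receptor Ptger4 and the D2 synthase Hpgds, and with less RNA of the breakdown enzyme Hpgd. Against saline, Ptgdr was 19.0-fold higher, Ptger4 2.18-fold, Hpgds 1.96-fold, and Hpgd was 4.34-fold lower. With the antibody against IL-4Ra, Ptgdr was 5.28-fold lower than with OVA and isotype control, while the fold changes of Ptger4, Hpgds and Hpgd between those groups did not pass the test. The call was an adjusted p under 0.05 in edgeR's quasi-likelihood test of all 15 libraries. Of the 10 genes, 9 passed the filter on low counts and were tested, all but Ptgds. Ptgdr passed it through the OVA group, where it was high. For OVA against saline, 3 were called higher and 1 lower, where 37.1% of all 15905 genes tested were called (19.3% higher, 17.8% lower), so the count of 4 in 9 is near the share over the genome. The libraries of both groups did not overlap for 4 of the genes, against 26.6% of all genes tested. For anti-IL-4Ra against OVA, 1 of the 9, Ptgdr, was called, where 0.302% of all genes were called (0.138% higher, 0.163% lower), and it alone had no overlap, against 1.17% of all genes. For anti-IL-4Ra against saline, the same 4 genes were called in the same directions, where 26.6% of all genes were called (13.9% higher, 12.7% lower), and 3 did not overlap, against 19.8%. The comparisons with saline share their saline libraries, so their values are given side by side and do not support each other.

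**Figure D1:**
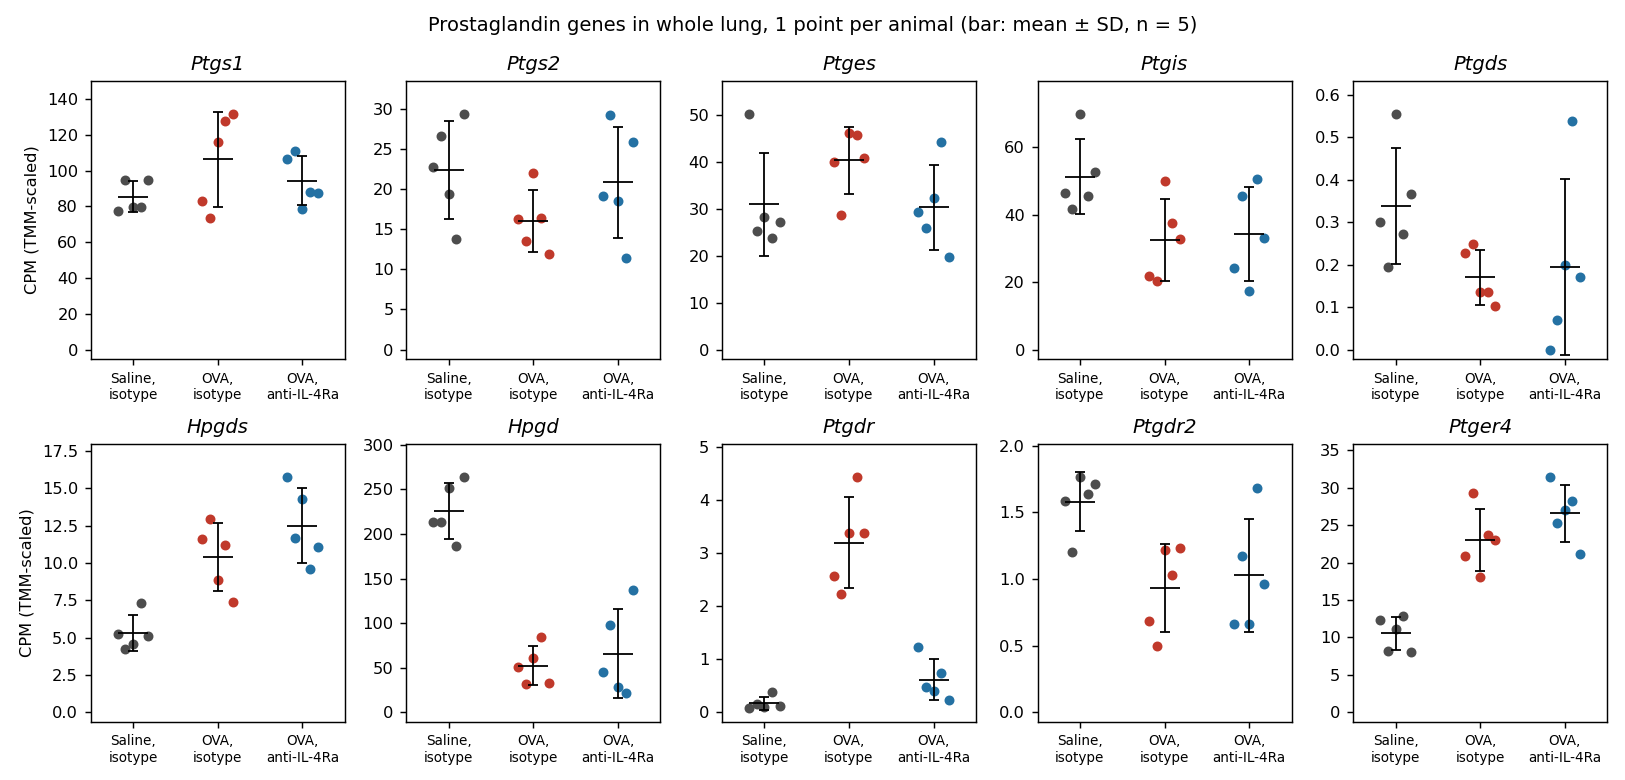
Level in CPM of each of the 10 genes in every library, with 1 point per animal and a bar for the mean ± SD of the 5 animals of a group. The 5 OVA libraries hold 2.23 to 4.45 CPM of Ptgdr and the 5 libraries with anti-IL-4Ra 0.227 to 1.24 CPM, whereas for Hpgds and Ptger4 both OVA groups lie above saline.

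Upstream sequence is shown for the 4 called genes, for Ptgdr2 as the other D2 receptor, and for Ptges as the gene whose window holds a STAT6-type match. Each line gives the 250 bases before the start of the gene, 5′ to 3′ on the strand of the gene, from RefSeq on GRCm38.p6, which held an entry for 9 of the 10 genes (none for Ptgis). The windows are chr14:44859376-44859625 (minus strand) for Ptgdr, chr19:10936910-10937159 (plus) for Ptgdr2, chr6:65144731-65144980 (minus) for Hpgds, chr8:56294302-56294551 (plus) for Hpgd, chr15:5244188-5244437 (minus) for Ptger4 and chr2:30903298-30903547 (minus) for Ptges. Capitals mark matches to any of 9 motifs searched on both strands.
Ptgdr: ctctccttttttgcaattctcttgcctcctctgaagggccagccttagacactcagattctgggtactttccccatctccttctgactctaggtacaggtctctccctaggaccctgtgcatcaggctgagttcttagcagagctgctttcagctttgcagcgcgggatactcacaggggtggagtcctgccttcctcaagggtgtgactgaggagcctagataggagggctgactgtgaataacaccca
Ptgdr2: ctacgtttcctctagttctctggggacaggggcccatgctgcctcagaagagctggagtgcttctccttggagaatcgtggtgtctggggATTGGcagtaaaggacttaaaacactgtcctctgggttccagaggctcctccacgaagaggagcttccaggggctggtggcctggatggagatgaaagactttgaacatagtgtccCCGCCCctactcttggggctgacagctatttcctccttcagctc
Hpgds: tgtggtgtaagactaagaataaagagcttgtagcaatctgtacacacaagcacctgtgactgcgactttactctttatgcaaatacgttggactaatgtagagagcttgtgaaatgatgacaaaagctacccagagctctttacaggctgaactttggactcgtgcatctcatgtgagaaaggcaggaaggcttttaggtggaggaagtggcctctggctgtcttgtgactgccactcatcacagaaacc
Hpgd: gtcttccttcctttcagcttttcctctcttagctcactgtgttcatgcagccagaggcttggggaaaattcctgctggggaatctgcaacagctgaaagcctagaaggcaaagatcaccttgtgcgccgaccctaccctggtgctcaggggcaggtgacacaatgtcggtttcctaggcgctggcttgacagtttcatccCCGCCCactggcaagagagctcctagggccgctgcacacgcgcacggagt
Ptger4: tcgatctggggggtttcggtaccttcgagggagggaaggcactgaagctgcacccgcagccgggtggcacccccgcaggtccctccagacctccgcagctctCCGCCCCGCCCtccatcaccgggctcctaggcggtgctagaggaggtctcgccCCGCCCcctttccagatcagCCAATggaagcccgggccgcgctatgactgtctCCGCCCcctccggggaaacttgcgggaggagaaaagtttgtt
Ptges: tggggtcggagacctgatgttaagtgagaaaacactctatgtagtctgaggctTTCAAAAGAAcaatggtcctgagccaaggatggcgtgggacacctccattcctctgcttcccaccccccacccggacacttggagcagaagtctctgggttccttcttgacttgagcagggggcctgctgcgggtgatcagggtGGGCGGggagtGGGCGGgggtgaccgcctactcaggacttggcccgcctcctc
The motif TTCNNNNGAA, the form bound by STAT6, the factor that IL-4Ra activates, is in 5.85% of all 32851 windows of this length and among the 9 windows only in that of Ptges, 197 bases before the start. The GC box GGGCGG, in 32.7% of all windows, is in those of Ptgs2, Ptges, Hpgd, Ptger4 and Ptgdr2. The CCAAT box, in 33.8%, is in those of Ptger4 and Ptgdr2, and the AP-1 form TGANTCA, in 6.75%, in that of Ptgds. TTCNNNGAA (7.02%), AGATAA (9.99%), ACGTCA (6.47%), CACGTG (6.02%) and TATAAA (12.4%) are in none of the 9. The windows of Ptgdr and Hpgds thus carry no capitals, which says only that none of these letters lie in these 250 bases.

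The cyclooxygenases did not pass the test in any comparison. Ptgs1, the constitutive form, had 85.4 ± 8.64 CPM with saline, 106 ± 26.4 with OVA and 94.4 ± 13.8 with anti-IL-4Ra (mean ± SD, n = 5 in each group here and below). Its log2 fold change for OVA against saline was 0.32 ± 0.16 (SE, edgeR adjusted p = 0.127), and without OVA replicate 2, the lowest of its group at 73.8 CPM, it was 0.42 (adjusted p = 0.038). Ptgs2, the inducible form, had 22.3 ± 6.10 CPM with saline, 16.0 ± 3.85 with OVA and 20.8 ± 6.93 with anti-IL-4Ra. Its log2 fold change of -0.48 ± 0.25 for OVA against saline (edgeR adjusted p = 0.142) became 0.20 when the Rn45s share entered the fit. All 3 groups overlapped for both genes.

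Both prostaglandin D synthases were measured, at very different levels. The haematopoietic form Hpgds, found in mast cells, T helper 2 cells and antigen-presenting cells, had 5.27, 4.26, 4.54, 7.35 and 5.13 CPM in saline replicates 1 to 5. It had 11.6, 13.0, 8.85, 11.2 and 7.38 CPM in the OVA replicates and 15.8, 11.7, 14.3, 9.62 and 11.1 CPM in the replicates with anti-IL-4Ra. The lowest OVA library, replicate 5, lay just above the highest saline library, replicate 4, and every library with the antibody lay above every saline library. Hpgds rose by 0.97 ± 0.20 on the log2 scale with OVA (edgeR adjusted p = 0.00164) and by 1.23 ± 0.20 with OVA and anti-IL-4Ra (adjusted p = 5.8e-04), both against saline. Against OVA, the antibody group differed by 0.26 ± 0.19 (edgeR adjusted p = 1.00), with a 95% interval from -0.15 to 0.67. With the Rn45s share in the fit, the value for OVA against saline was 0.89 ± 0.28 and no longer called (edgeR adjusted p = 0.0792). Counts of Hpgds were not whole in any of the 15 libraries, so each holds reads that the authors' counting shared with other genes.

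The lipocalin form Ptgds had 5 to 11, 1 to 3 and 0 to 8 counts per library in the saline, OVA and anti-IL-4Ra groups, too few to pass the filter. Its levels were 0.338 ± 0.136, 0.170 ± 0.0637 and 0.195 ± 0.208 CPM, with overlap among all groups. Without the filter on low counts its log2 fold change for OVA against saline was -0.97 ± 0.59 (edgeR adjusted p = 0.234). A difference in Ptgds was not detectable at this depth.

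Markers of several cell types that can hold Hpgds differed between saline and OVA lungs too. The summed level of 9 macrophage and dendritic cell markers spanned 459 to 532 CPM in saline, 713 to 1095 in OVA and 574 to 884 in anti-IL-4Ra libraries, and 4 of the 9 were called higher and 1 lower for OVA against saline. Itgax, from a mean of 68.9 to 285 CPM, and Mrc1, from 147 to 243 CPM, made up most of that rise. Pparg was the 1 called lower, and Cd68, Csf1r, Marco and Zbtb46 were not called. Of all genes tested, 19.3% were called higher and 17.8% lower in this comparison. The sum of 6 T helper 2 and innate lymphoid markers spanned 28.4 to 33.0, 55.0 to 99.0 and 35.7 to 62.7 CPM in the saline, OVA and anti-IL-4Ra groups. For OVA against saline 5 of 6 were called higher, and Gata3 was not called. Il1rl1, from a mean of 10.4 to 35.6 CPM, made up most of the rise in this sum. Il13, Il4 and Il5 passed the filter on low counts through the challenged groups, with 0, 0 and 1 saline libraries at the minimum. The sum of 11 mast cell and basophil markers went the other way, at 430 to 487 CPM in saline, 232 to 408 CPM in OVA and 218 to 410 CPM in anti-IL-4Ra libraries. Of the 9 mast cell and basophil markers tested, 1 was called higher and 2 lower, near the shares over all genes tested. Kit, which fell from a mean of 305 to 175 CPM with OVA, and Gata2, from 89.8 to 46.6 CPM, are the 2 called lower and made up most of the fall in the sum. The sum thus follows these 2 genes more than the list as a whole. Hdc was called higher, at 65.1 and 92.4 CPM. The mast cell proteases Cpa3, Tpsb2, Tpsab1, Cma1 and Mcpt4 were not called (log2 fold changes -0.0029, 0.059, 0.58, -0.31 and -0.30). Ms4a2 was not called either (-0.11). No marker of these lists was at 0 in every library of a group. Their part in the level of Hpgds was not tested.

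The other terminal synthases did not pass the test. Ptges, the inducible prostaglandin E synthase, had 30.9 ± 10.9 CPM with saline, 40.3 ± 7.08 with OVA and 30.3 ± 9.11 with anti-IL-4Ra. Saline replicate 1 stood apart at 50.2 CPM, where the other 4 held 23.7 to 28.3 CPM. The log2 fold change of Ptges for OVA against saline was 0.38 ± 0.23 (edgeR adjusted p = 0.202), and without that library it was 0.62 ± 0.20 and called (adjusted p = 0.0268). With the Rn45s share in the fit it was -0.12. Ptgis, the prostacyclin synthase, had 51.2 ± 11.1 CPM with saline, 32.4 ± 12.2 with OVA and 34.1 ± 13.9 with anti-IL-4Ra. Its log2 fold change for OVA against saline was -0.66 ± 0.29 (edgeR adjusted p = 0.0818). Without OVA replicate 3, the highest of its group at 50.0 CPM, it was -0.92 (adjusted p = 0.0200), and in a fit of these 2 groups alone -0.65 (adjusted p = 0.0468).

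Hpgd, the 15-hydroxyprostaglandin dehydrogenase that inactivates prostaglandins, was the most abundant of the 10 genes in saline lungs. It had 214, 214, 252, 187 and 264 CPM in saline replicates 1 to 5. The OVA replicates had 50.7, 31.8, 60.5, 84.4 and 32.8 CPM, and those with anti-IL-4Ra 45.1, 97.5, 28.4, 21.7 and 137 CPM. Every saline library lay above every challenged library, and within the antibody group replicates 2 and 5 lay above all OVA libraries while replicates 3 and 4 lay below them. Hpgd fell by 2.12 on the log2 scale with OVA (SE 0.43, edgeR adjusted p = 0.00163) and by 1.78 with OVA and anti-IL-4Ra (SE 0.42, adjusted p = 0.00723), both against saline. Against OVA, the antibody group differed by 0.34 ± 0.41 (adjusted p = 1.00), with a 95% interval from -0.54 to 1.22.

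Among the challenged libraries, the level of Hpgd was lower where the share of Rn45s was high, with exceptions. Among the animals with anti-IL-4Ra, it was 137 CPM in replicate 5 at 1.65% Rn45s and 97.5 CPM in replicate 2 at 3.10%, and 21.7 to 45.1 CPM in the 3 libraries at 9.79 to 12.4%. Replicate 5, whose share lies in the saline range, had less Hpgd than any of the 5 saline libraries. Among the OVA animals, replicate 4 had both the lowest share, 4.31%, and the highest Hpgd, but replicate 2 at 8.47% and replicate 5 at 12.4% were alike at 31.8 and 32.8 CPM. Within the saline group Hpgd did not follow the share: replicates 1 and 2, at 2.88% and 1.19%, both had 214 CPM. With the share as a covariate, the log2 fold change of Hpgd was -0.72 ± 0.28 for OVA against saline (edgeR adjusted p = 0.126) and -0.77 ± 0.26 for anti-IL-4Ra against saline (adjusted p = 0.139). Without the 4 libraries over 9% Rn45s, OVA replicate 5 and anti-IL-4Ra replicates 1, 3 and 4, the fall for anti-IL-4Ra against saline was -0.93 ± 0.31 and not called (adjusted p = 0.139), whereas the fall for OVA against saline stayed called. Lung samples can carry heart tissue, so the mean log2 level of cardiac markers was also used as a covariate. The value for anti-IL-4Ra against saline was then -1.72 ± 0.56 (edgeR adjusted p = 0.0643). The share of Rn45s and the treatment are confounded in part, and the part each has in the fall was not tested.

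**Figure D2:**
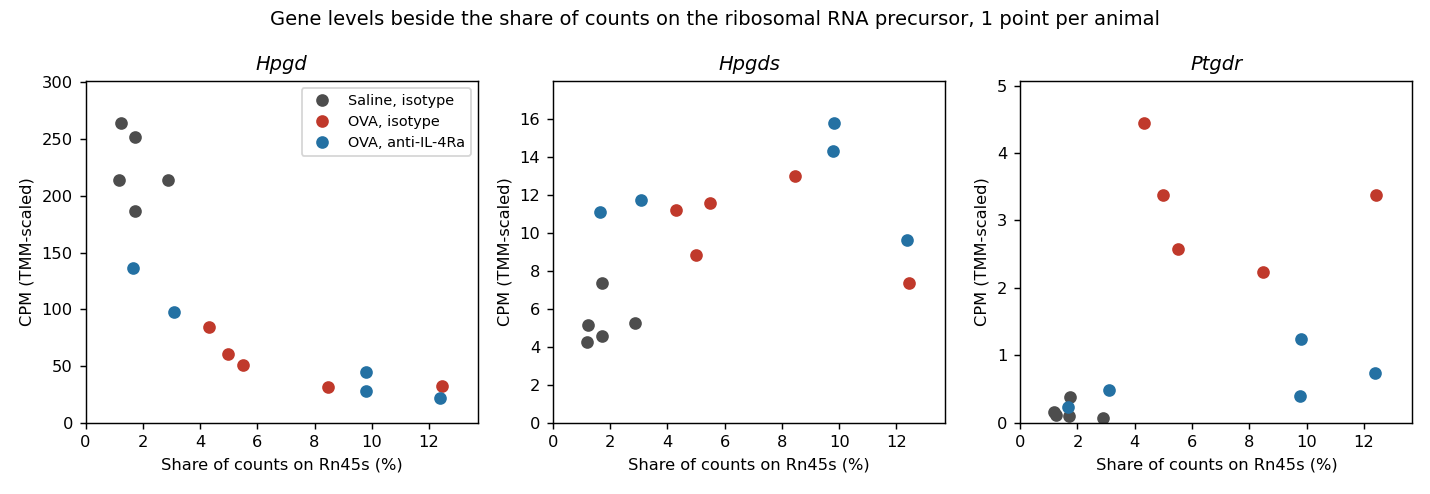
Level in CPM of Hpgd, Hpgds and Ptgdr (vertical axes) against the share of counts from Rn45s in percent (horizontal axes), with 1 point per animal, coloured by group. Hpgd is highest in the saline libraries, at 1.19 to 2.88%. It is lowest in anti-IL-4Ra replicates 4 and 3, both over 9%, at 21.7 and 28.4 CPM. OVA replicate 2, at 8.47%, holds 31.8 CPM, less than OVA replicate 5 and anti-IL-4Ra replicate 1, which are over 9%. Every OVA library holds more Ptgdr (2.23 to 4.45 CPM) than any library with anti-IL-4Ra (0.227 to 1.24 CPM).

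Most of the listed markers of cells that can hold Hpgd fell as well. The sum of 7 alveolar epithelial markers spanned 10458 to 14737, 3704 to 8228 and 3685 to 11840 CPM in the saline, OVA and anti-IL-4Ra groups. For OVA against saline, 6 of the 7 were called lower, where 17.8% of all genes tested were called lower and 19.3% higher. The sum of 6 endothelial markers was 3161 to 4263, 1116 to 2031 and 1056 to 2543 CPM, with 6 of 6 called lower. The sum of 5 airway epithelial markers was 9222 to 22631, 2994 to 10929 and 4288 to 12441 CPM, with 3 called lower and 1 higher. Scgb1a1, from a mean of 14353 to 4777 CPM with OVA, made up most of the fall in that sum. Muc5ac was the 1 called higher, from 2.76 to 854 CPM, and Foxj1 was not called. None of these markers was at 0 throughout a group, and their part in the level of Hpgd was not tested.

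Among the receptors, Ptgdr showed the largest differences of the 9 genes tested. It had 0.0753, 0.155, 0.101, 0.381 and 0.122 CPM in saline replicates 1 to 5, which are 2 to 7 counts per library. The OVA replicates had 2.58, 2.23, 3.38, 4.45 and 3.38 CPM, which are 27.1 to 65.1 counts. With anti-IL-4Ra, the replicates had 1.24, 0.482, 0.399, 0.740 and 0.227 CPM, which are 4.40 to 15.01 counts. Every OVA library lay above all others, and the antibody libraries overlapped with saline only through saline replicate 4. Ptgdr rose by 4.25 ± 0.46 on the log2 scale with OVA against saline (edgeR adjusted p = 2.0e-05). It was lower with anti-IL-4Ra than with OVA by a log2 fold change of -2.40 ± 0.41 (adjusted p = 0.0123), with a 95% interval from -3.26 to -1.54. It was still 1.84 ± 0.49 above saline (adjusted p = 0.0132), on few counts in both groups.

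The call for anti-IL-4Ra against OVA held in 10 of 11 alternative fits and without each library in turn (adjusted p up to 0.0469). Without the 4 libraries over 9% Rn45s, which leaves 4 OVA and 2 antibody libraries, the log2 fold change was -3.16 ± 0.59 and the adjusted p 0.0666. The call against saline did not hold with the Rn45s share in the fit (1.35 ± 0.67, edgeR adjusted p = 0.282), with the cardiac markers (1.42 ± 0.58, adjusted p = 0.127) or without those 4 libraries (1.09 ± 0.63, adjusted p = 0.351). Ptgdr passed the filter on low counts through the OVA group, where all 5 libraries reached the minimum, and 2 of the 10 others did. Its test between anti-IL-4Ra and saline was thus made only through libraries outside that comparison. Ptgdr was not tested in a fit of those groups alone. In the GENCODE M21 annotation its exons overlap those of Gm16976 on the opposite strand, and its counts were not whole in 11 libraries.

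Ptgdr2, the other D2 receptor, had its highest mean in saline lungs and was not called in any comparison. It had 1.58, 1.201, 1.77, 1.63 and 1.71 CPM in the saline replicates, 0.682, 0.496, 1.22, 1.03 and 1.23 CPM in the OVA replicates and 0.661, 1.17, 0.666, 1.68 and 0.966 CPM in those with anti-IL-4Ra. The highest OVA library lay just above the lowest saline library, and the antibody libraries spanned both groups. The log2 fold change for OVA against saline was -0.76 ± 0.30 (edgeR adjusted p = 0.0601), at the edge of the threshold: it was called in 3 of 11 alternative fits, with limma voom (adjusted p = 0.0476), in a fit of these groups alone (0.0489) and without the libraries over 9% Rn45s (0.0446). It was also called without saline replicate 2, OVA replicate 3 or anti-IL-4Ra replicates 1 or 4 (adjusted p 0.0311 to 0.0499). Against OVA, the antibody group differed by 0.15 ± 0.31, and against saline by -0.60 ± 0.30, neither called. The exons of Ptgdr2 overlap those of Ccdc86 on the opposite strand, and its counts were not whole in any library. Ccdc86 itself had 13.5 ± 1.19, 14.0 ± 1.98 and 14.6 ± 2.12 CPM and was not called in any comparison. Summed levels of the 5 eosinophil markers, cells that carry Ptgdr2, were 14.9 to 20.6, 28.2 to 63.6 and 23.5 to 45.2 CPM in the saline, OVA and anti-IL-4Ra groups. For OVA against saline, 4 of 5 were called higher and 1 lower, against 19.3% and 17.8% of all genes tested. Epx passed the filter on low counts through the OVA group and Prg2 through both challenged groups, each with 0 saline libraries at the minimum. The part of eosinophils in either D2 receptor was not tested.

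Ptger4, the EP4 receptor through which prostaglandin E2 raises cyclic AMP, rose with challenge. It had 12.3, 8.25, 11.1, 12.9 and 8.12 CPM in saline replicates 1 to 5. The OVA replicates had 20.8, 29.3, 18.1, 23.7 and 23.1 CPM, and those with anti-IL-4Ra 31.5, 25.3, 27.0, 28.2 and 21.1 CPM. Every challenged library, with or without the antibody, lay above every saline library. The log2 fold changes against saline were 1.12 ± 0.17 with OVA (edgeR adjusted p = 2.0e-04) and 1.34 ± 0.17 with OVA and anti-IL-4Ra (adjusted p = 1.2e-04), and both calls held under every alternative run. The antibody group differed from OVA by 0.21 ± 0.16, with a 95% interval from -0.14 to 0.56 (edgeR adjusted p = 1.00). The exons of Ptger4 overlap those of Ttc33 and Gm15937 on the opposite strand. Its counts were whole in all 15 libraries, and Ttc33, at 24.9 ± 1.47, 23.7 ± 3.03 and 22.8 ± 2.29 CPM, was not called.

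**Figure D3:**
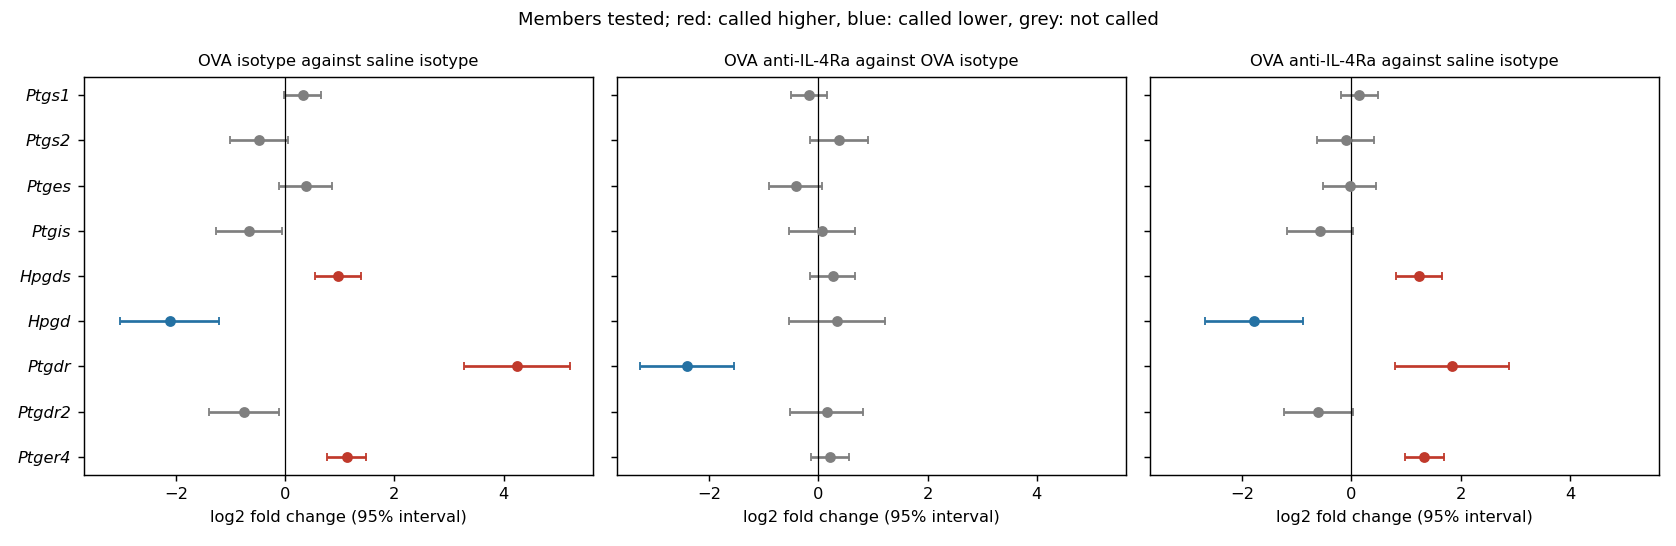
Log2 fold change (horizontal axis) with its 95% interval for each of the 9 genes tested, in the 3 comparisons. Ptgdr stands at 4.25 for OVA against saline and at -2.40 for anti-IL-4Ra against OVA, where the intervals of the other 8 genes include 0.

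Levels were also compared between genes after division by exon length, in CPM per kilobase of the exons in GENCODE M21. With saline, Hpgd stood highest at 134 ± 18.7 CPM per kilobase, followed by Ptgs1 at 22.0 ± 2.22 and Ptgis at 19.95 ± 4.32, whose libraries overlapped. Next came Ptges at 7.87 ± 2.78 and Ptgs2 at 4.88 ± 1.33, which overlapped, Ptger4 at 1.58 ± 0.336, and Hpgds and Ptgdr2 at 0.827 ± 0.189 and 0.597 ± 0.0841, which overlapped. Ptgds and Ptgdr were lowest, at 0.205 ± 0.0827 and 0.0524 ± 0.0387 CPM per kilobase, with overlap. With OVA the order began with Hpgd at 30.9 ± 12.9, Ptgs1 at 27.4 ± 6.81, Ptgis at 12.6 ± 4.74 and Ptges at 10.3 ± 1.80 CPM per kilobase, and each overlapped with the next. Ptgdr stood above Ptgdr2 with OVA, at 1.01 ± 0.269 against 0.352 ± 0.124 CPM per kilobase, with no overlap. With saline the order of these receptors was the opposite, also with no overlap, and with anti-IL-4Ra they overlapped, at 0.194 ± 0.124 for Ptgdr and 0.389 ± 0.160 for Ptgdr2. These lengths need not be those of the annotation that the authors counted on, which the sources used here do not give.

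Ratios of counts within a library do not depend on library scaling, apart from the 0.5 added to each count, which weighs on the few counts of Ptgds. In all, 3 ratios were compared between groups by exact permutation tests (two-sided, n = 5 against 5, smallest possible p 0.00794), adjusted over 9 tests. The log2 ratio of Ptges to Hpgd, RNA of 1 prostaglandin E synthase over RNA of the breakdown enzyme, was -2.92 ± 0.474 with saline, -0.29 ± 0.433 with OVA and -0.82 ± 1.54 with anti-IL-4Ra. It was higher by 2.63 with OVA than with saline, with no overlap (exact permutation p = 0.00794, adjusted p = 0.0357), and by 2.09 with anti-IL-4Ra than with saline (exact permutation p = 0.0159, adjusted p = 0.0476). The call for anti-IL-4Ra against saline was lost in 8 of 10 runs without a single library. Hpgd by itself fell by 2.12 with OVA in the edgeR fit, where Ptges was not called. Prostaglandins themselves were not measured here. The antibody group held the highest ratio, 1.03 in replicate 4, at 12.4% Rn45s. It also held a ratio of -2.79 in replicate 5, inside the saline range, at 1.65% Rn45s. Among the OVA libraries the ratio ran from -0.88 in replicate 4, at 4.31% Rn45s, to 0.32 in replicate 5, at 12.4%. No ratio was compared with the Rn45s share taken into account, and the part of that share was not tested. The log2 ratio of Hpgds to Ptgds was 3.94 ± 0.635, 5.66 ± 0.234 and 6.25 ± 1.64 in the 3 groups. It was higher by 1.72 with OVA than with saline, with no overlap (exact permutation p = 0.00794, adjusted p = 0.0357), on the few counts of Ptgds. The difference of 2.31 between anti-IL-4Ra and saline did not pass (exact permutation p = 0.0238, adjusted p = 0.0536). With 1 added to each count instead of 0.5, the differences from saline were 1.56 with OVA and 2.03 with anti-IL-4Ra. The log2 ratio of Ptgs2 to Ptgs1 was -1.97 ± 0.339, -2.72 ± 0.484 and -2.24 ± 0.472, and the difference of -0.75 between OVA and saline did not pass (exact permutation p = 0.0317, adjusted p = 0.0571). No ratio passed this test between anti-IL-4Ra and OVA, with adjusted exact permutation p from 0.25 to 0.524.

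**Figure D4:**
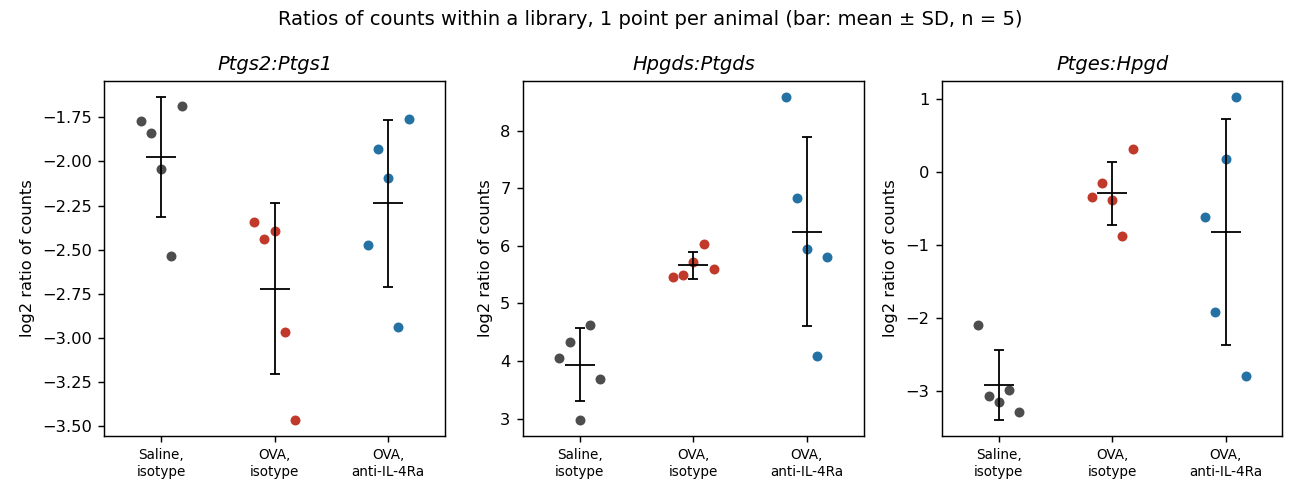
Log2 ratio of counts within each library (vertical axes) for 3 pairs of genes in the 3 groups, with 1 point per animal and bars for the mean ± SD. For Ptges to Hpgd, the OVA libraries lie between -0.88 and 0.32 and the saline libraries between -3.28 and -2.09, while the libraries with anti-IL-4Ra run from -2.79 to 1.03.

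Of 25 other genes of the pathway, 23 were tested. For OVA against saline 6 were called higher and 6 lower, against 37.1% of all genes tested called; 11 had libraries with no overlap, against 26.6% of all genes; the median log2 fold change of the 23 was -0.19, against 0.02 for all genes tested. Of the 6 phospholipases tested, which release arachidonic acid, 3 were called higher and 1 lower. The cytosolic Pla2g4c rose from 0.482 ± 0.0677 to 8.62 ± 3.70 CPM (log2 fold change 4.14 ± 0.52, edgeR adjusted p = 6.3e-05). The secreted forms Pla2g2d and Pla2g5 rose by 2.06 ± 0.42 and 1.69 ± 0.47 (adjusted p 0.00173 and 0.0108), and Pla2g1b fell by 1.57 (SE 0.34, adjusted p = 0.00244). Pla2g4c and Pla2g5 passed the filter on low counts through the challenged groups, where they were high. Of the saline libraries, 0 and 2 reached the minimum. Among the synthases, Tbxas1, which makes thromboxane, rose from 11.2 ± 1.98 to 24.9 ± 4.04 CPM (1.15 ± 0.17, adjusted p = 1.7e-04). The carbonyl reductases Cbr2 and Cbr1 fell by 1.56 and 0.62, and Ptges2, a prostaglandin E synthase, by 0.35 (adjusted p 0.00165, 0.0182 and 0.0411). The prostaglandin transporter Slco2a1 fell by 0.78 (adjusted p = 0.0208). Among the other receptors, the prostacyclin receptor Ptgir rose by 1.10 ± 0.16 (adjusted p = 2.1e-04) and the E2 receptor Ptger2 by 0.52 ± 0.17 (adjusted p = 0.0255), and the F receptor Ptgfr fell by 1.08 (adjusted p = 0.0105). With the Rn45s share in the fit, 3 of these 12, Pla2g4c, Tbxas1 and Ptgir, were called. The calls of Ptger2, Ptges2 and Slco2a1 were each lost on leaving out 1 library, for 5, 7 and 3 of the 15 libraries (edgeR adjusted p up to 0.0940, 0.0933 and 0.0563).

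For anti-IL-4Ra against OVA, none of the 23 was called by edgeR, DESeq2 or limma voom, where 0.302% of all genes tested were called by edgeR, and 2 had an unadjusted p under 0.05 in each of these. They were Pla2g4c, at 3.83 ± 2.76 CPM with the antibody (log2 fold change -1.19 ± 0.45, edgeR adjusted p = 0.627), and Cbr2, at 647 ± 325 CPM with OVA and 1089 ± 379 with the antibody (0.75 ± 0.31, adjusted p = 0.725). Without the 4 libraries over 9% Rn45s, an alternative chosen after seeing the data, Pla2g4c was called lower (-2.61 ± 0.36, edgeR adjusted p = 0.0160). That fit holds 4 OVA and 2 antibody libraries. Pla2g4c was not called in the other 10 of 11 alternative fits, nor in any of the 15 fits without a single library. The median of the 23 was 0.06, against 0.00 for all genes tested. For anti-IL-4Ra against saline, 6 were called higher and 3 lower, against 26.6% of all genes tested called, and the median was -0.11, against 0.02. Pla2g4c was 2.95 ± 0.52 above saline (edgeR adjusted p = 0.00109), Pla2g5 1.80 ± 0.46 and Pla2g2d 1.64 ± 0.42. Tbxas1, Ptgir and Ptger2 were 1.00 ± 0.17, 0.81 ± 0.16 and 0.53 ± 0.17 above it, and Ptgfr and Slco2a1 had log2 fold changes of -0.99 and -0.79. Pla2g1b was at 2.92 ± 1.19 CPM, against 5.86 ± 0.947 with saline (edgeR adjusted p = 0.0342). The calls of Ptger2, Pla2g1b, Ptgfr and Slco2a1 against saline were each lost on leaving out 1 library, for 5, 6, 3 and 5 of the 15 libraries (edgeR adjusted p up to 0.112, 0.0888, 0.0642 and 0.0713). Without the 4 libraries over 9% Rn45s, 2 of these 9 were called, Pla2g4c and Tbxas1, and with the Rn45s share in the fit Tbxas1 alone.

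**Figure D5:**
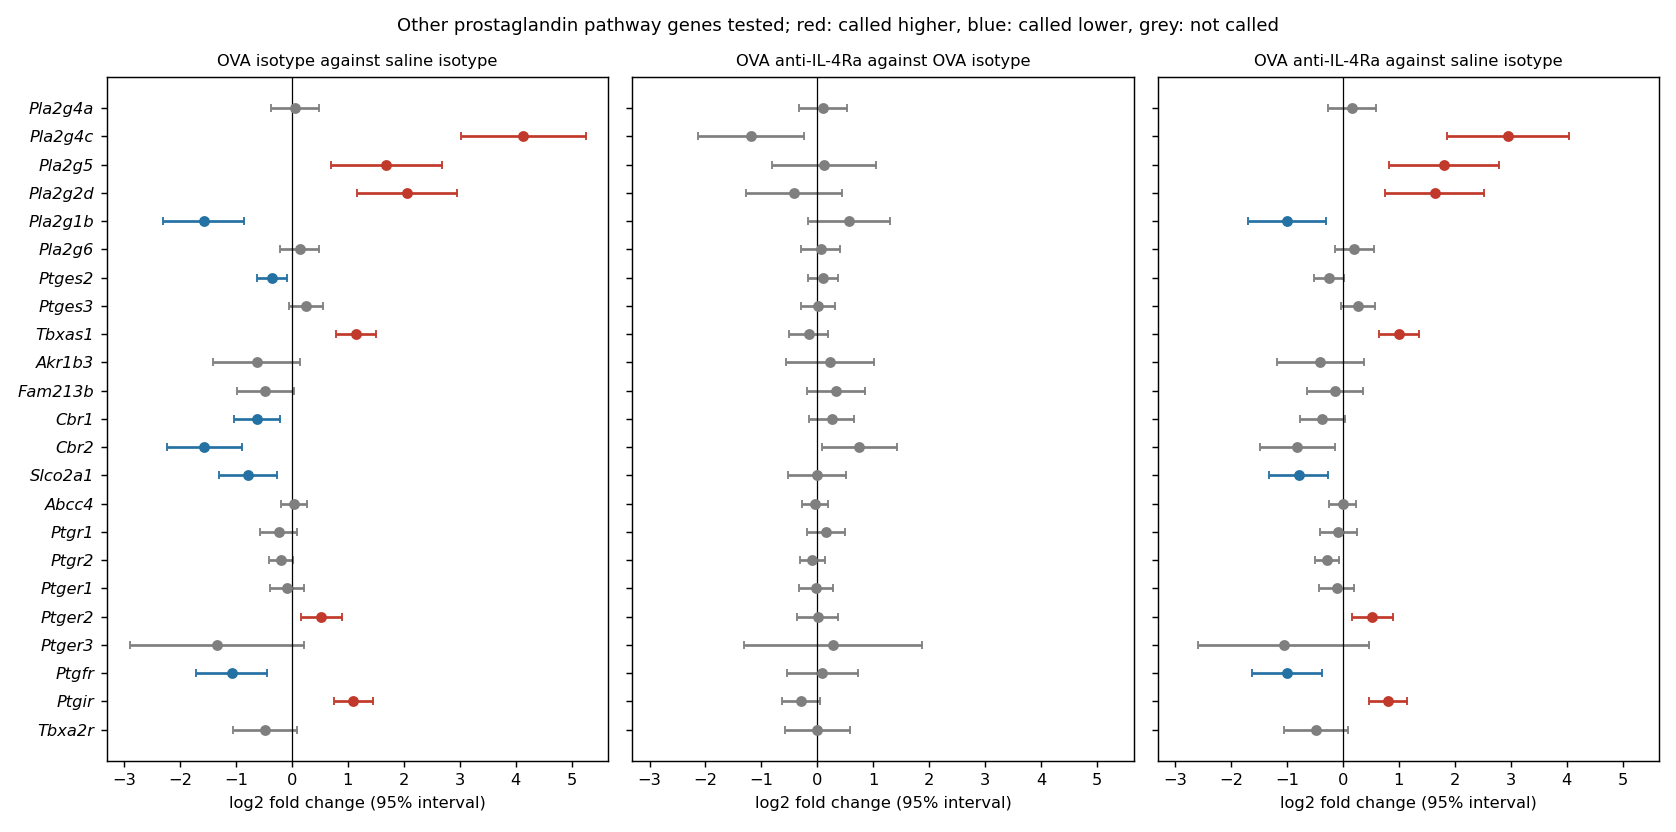
Log2 fold change with its 95% interval for the 23 other pathway genes tested, in the 3 comparisons, ordered by role. Pla2g4c stands at 4.14 for OVA against saline, and no gene is called for anti-IL-4Ra against OVA.

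For each called gene, the 2 genes most alike in pattern were found among 15217 genes by the root mean square difference of centred log2(CPM + 0.5) over the 15 libraries. For Ptgdr these were Ksr2 (0.37) and Msx3 (0.37), with Msx3 at 0.0230 ± 0.0345, 3.03 ± 0.623 and 0.209 ± 0.142 CPM in the 3 groups. Both were called higher with OVA than with saline and lower with anti-IL-4Ra than with OVA (log2 fold changes -1.86 ± 0.36 and -3.83 ± 0.48, edgeR adjusted p 0.0340 and 9.4e-04). For Hpgd they were Pcolce2 (0.28) and Lrat (0.30), at 218 ± 27.7 and 216 ± 46.9 CPM with saline and 48.6 ± 21.2 and 62.0 ± 22.2 CPM with OVA. For Hpgds they were Rnaseh2b (0.21) and H2afz (0.21), and for Ptger4 Lcp2 (0.19), a signalling adaptor of blood cells, and Flt3 (0.21), a receptor of dendritic cell precursors. These lists were searched in the same libraries and are a description only.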

How the data were processed

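RNA of 15 whole mouse lungs was measured. The authors deposited expected counts by gene symbol with a column for each animal; the submitters' processing notes name Bowtie2 2.1.0 and RSEM 1.2.15, which shares ambiguous reads among genes by an estimate. The notes name hg38, but 22542 of 24054 symbols are current mouse RefSeq symbols and 1372 are mouse synonyms, so values were read as mouse genes. Per the labels' protocols, libraries were strand-specific (dUTP), and both ribosomal RNA depletion and oligo-dT beads are named. The sources used here do not say whether counting used strand, so reads of genes that overlap on opposite strands may not be told apart.

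Expected counts were rounded. Genes were kept by filterByExpr (15905), scaled by TMM and tested in edgeR 4.0.16 (R 4.3.3), two-sided, with Benjamini-Hochberg adjustment over all genes tested. A standard error was taken from the F statistic. Ratios used log2 of counts plus 0.5 and exact permutation tests (SciPy 1.17.1). The fit was tested on simulated data. Alternatives used DESeq2 1.42.0, limma 3.58.1, other scalings and filters, covariates and left-out libraries. No pair of libraries of the same group agreed within sampling noise. Every member, each other pathway gene called, and the 2 nearest genes per called member are named. The members and lists were chosen with earlier results of these data known.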

Additional observations from a re-analysis of the deposited data

Results flagged for a closer look

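Among 39 groups of 5 libraries checked for a library far from the others, 3 had one, and chance flags about 1 in 20 groups. Saline replicate 1 was the highest of its group for Ptges, at 50.2 CPM where the next library held 28.3 CPM. The same library had the highest log2 ratio of Ptges to Hpgd in the saline group, -2.09 where the next was -2.98. Saline replicate 4 was the highest of its group for Ptgdr, at 0.381 CPM where the next library held 0.155 CPM, which are 7 and 4 counts.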

How the results depend on the processing

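Among the alternatives run, adding the Rn45s share to the fit and leaving out the 4 libraries over 9% Rn45s (chosen after seeing the data) changed several counts of calls. With the Rn45s share, 750 genes were called for OVA against saline (486 higher, 264 lower) instead of 5898 (3069 higher, 2829 lower) and 373 for anti-IL-4Ra against saline (322 higher, 51 lower) instead of 4234 (2209 higher, 2025 lower); 2 of the described genes were called in each. Log2 fold changes that changed sign were 0.20 for Ptgs2 and -0.12 for Ptges (OVA against saline), -0.051 for Hpgd (anti-IL-4Ra against OVA) and 0.47 for Ptgs2 (anti-IL-4Ra against saline). Without the 4 libraries, 27 genes (19 higher, 8 lower) instead of 48 (22 higher, 26 lower) were called for anti-IL-4Ra against OVA and 569 (512 higher, 57 lower) against saline; 0 of the described genes in edgeR (4 at an unadjusted p under 0.05) and 2 were called, and Ptgs2 was 0.32 against saline. With the cardiac markers, 1672 genes (991 higher, 681 lower) and 2 of the described genes were called for anti-IL-4Ra against saline, where Ptgs1 was -0.10 and Ptges 0.28. DESeq2 called 128 genes for anti-IL-4Ra against OVA. The causes were not tested.

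Without single libraries, log2 fold changes that crossed 0 ran, for anti-IL-4Ra against OVA, from -0.090 to 0.31 for Ptgis, -0.11 to 0.60 for Hpgd and -0.072 to 0.30 for Ptgdr2, and, against saline, from -0.28 to 0.034 for Ptgs2 and -0.23 to 0.21 for Ptges. The ratio of Ptges to Hpgd ran from 2.47 to 2.83 for OVA against saline and from 1.63 to 2.58 for anti-IL-4Ra against saline, that of Hpgds to Ptgds from 1.49 to 1.90 and from 1.73 to 2.85, and that of Ptgs2 to Ptgs1 for OVA against saline from -0.89 to -0.56. With 4 libraries against 5 the exact permutation p cannot go below 0.0159, and adjusted p lay on both sides of 0.05 for each of these. The call of Ptges to Hpgd was lost in 3 of 10 such runs for OVA against saline and in 8 of 10 for anti-IL-4Ra against saline.

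Replicate numbers are shared among the groups, but same-numbered libraries did not deviate together (15 pairs, correlation -0.58 to 0.37, 2 over 0.1). With a replicate block, 26 genes (11 higher, 15 lower) were called for anti-IL-4Ra against OVA; ratios that lost their call were 1.72 for Hpgds to Ptgds and 2.63 for Ptges to Hpgd (OVA against saline) and 2.09 for Ptges to Hpgd (anti-IL-4Ra against saline), each at an adjusted p of 0.1125 in a test of paired sign flips whose p cannot go below 0.0625. At these depths 3 counts are 0.109 to 0.299 CPM, which limits what can be said of Ptgds and, in saline lungs, of Ptgdr.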
